A study of Homo sapiens with 6 samples.

Results

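RNAs that work folded, inside protein particles, without being translated were followed in the vesicles of carcinoma spheroids. The set held the 7SL genes RN7SL1, RN7SL2 and RN7SL3, the 7SK gene RN7SK, RPPH1 of ribonuclease P, RMRP of ribonuclease MRP, the Y RNA genes RNY1, RNY3 and RNY4, and the vault RNA gene VTRNA1-1. They were taken by name from a table of 38167 genes, and all 10 were found in it. The table held raw counts of RNA-seq reads from small extracellular vesicles of Cal27, an established line of squamous epithelial carcinoma cells. Spheroids had been kept to day 14 in Matrigel, a gel made from basement membrane. Its concentration was 3 mg/mL for the soft group and 12 mg/mL for the stiff group. There were 3 libraries per group, which their titles name biological replicates, with no account of which cultures they came from. Both groups share the cell line, the liquid overlay culture and the capture of vesicles from the medium by insulator-based dielectrophoresis, and Matrigel concentration is the labelled difference.

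7SL is the RNA scaffold of the signal recognition particle, which pauses translation of secreted and membrane proteins and brings the ribosome to the endoplasmic reticulum. 7SK holds the elongation factor P-TEFb in an inactive nuclear complex, and the RNAs of RNase P and RNase MRP are the cores of related enzymes that cut transfer RNA and ribosomal RNA precursors. Y RNAs bind the Ro60 and La proteins, and vault RNAs sit in the large cytoplasmic vault particle. All are made by RNA polymerase III, and 7SL and Y RNAs are well known in the RNA of vesicles.

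The 7SL genes are near-identical copies of each other, so the counts of all 3, and the call of RN7SL3 given with them, are uncertain gene by gene. A shared read may be split between copies, counted for both or dropped, and the handling of such reads is not given in the sources used here.

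RPPH1 is shown, by its first 300 bases, as a called gene with a sequence of its own, from the transcripts of GENCODE release 29 (GRCh38), as are the sequences that follow. It lies at chr14:20343075-20343407, minus strand. Reads were 61 bases long per the labels, so each sequence was cut into every window of 61 bases, and all 273 windows of RPPH1 were in no other transcript outside its locus. The same was true of all 208 windows of RMRP, while 194 of the 268 windows of RN7SK were also found in transcripts of other loci, among them the 7SK pseudogenes RN7SKP176 and RN7SKP80.
RPPH1: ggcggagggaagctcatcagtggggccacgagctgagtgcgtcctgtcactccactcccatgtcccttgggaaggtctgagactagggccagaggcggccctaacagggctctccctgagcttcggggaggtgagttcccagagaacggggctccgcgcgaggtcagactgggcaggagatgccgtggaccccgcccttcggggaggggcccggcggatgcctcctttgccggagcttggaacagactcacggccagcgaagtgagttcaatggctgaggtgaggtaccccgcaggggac

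The Y and vault RNAs are shown as the shortest of the set and those with the fewest counts. RNY1 lies at chr7:148987136-148987248, minus strand, RNY4 at chr7:148963315-148963410, plus strand, and VTRNA1-1 at chr5:140711275-140711373, plus strand. Capitals mark the only stretch of 10 or more bases held by both RNY1 and RNY4, which is 11 bases long and opens each of them.
RNY1: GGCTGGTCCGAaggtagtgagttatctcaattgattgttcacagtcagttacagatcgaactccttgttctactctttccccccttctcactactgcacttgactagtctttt
RNY4: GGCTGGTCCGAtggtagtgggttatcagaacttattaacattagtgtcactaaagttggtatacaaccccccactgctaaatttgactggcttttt
VTRNA1-1: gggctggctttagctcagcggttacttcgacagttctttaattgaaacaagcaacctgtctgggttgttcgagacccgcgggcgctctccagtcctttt
RNY1 and RNY4 were 63.7% identical over 113 aligned columns, and all windows of RNY1, RNY4 and VTRNA1-1 were in no other transcript outside their loci. The GC content of the 4 short RNAs was 41.7% to 52.5%, against 58.2% to 64.6% in the 6 longer RNAs and a median of 48.4% over 25653 genes.

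Libraries held 2445498 to 2545385 counts in soft and 2697502 to 2977837 in stiff, and ribosomal RNA genes took 2.97% to 8.87% of them in soft and 20.02% to 22.9% in stiff. Soft replicate 3 had the highest ribosomal RNA share of its group. Mitochondrial messenger genes took 1.48% to 1.81% in soft and 0.162% to 0.201% in stiff. Of 8 markers of squamous epithelium none was at 0, and their summed CPM (counts scaled to a common library size) ranged from 211.7 to 212.3 in soft and from 222.05 to 247.1 in stiff. Of 9 markers of blood, endothelium, fibroblasts and serum none was at 0 either, with sums of 268.1 to 292.0 in soft and 261.6 to 279.6 in stiff, so the markers of both lists were counted. KRT14, a basal keratin, was the 1 marker edgeR called (20.6 and 33.4 CPM in soft and stiff, adjusted p = 0.0281), and limma-voom and DESeq2 without its filter on mean count did not call it. The markers with the most counts were TP63 (50.9 and 46.9 CPM) and KRT5 (28.6 and 35.7 CPM) for epithelium, and COL1A1 (92.3 and 90.05 CPM) and PECAM1 (43.7 and 40.4 CPM) for other cells. The part of these markers in the results was not tested.

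Stiff Matrigel libraries held more 7SL, the scaffold RNA of the signal recognition particle, than soft ones in every pairing of libraries, but RN7SL3 was the only 7SL gene called by edgeR with its robust fit. RN7SL1 had 115, 280 and 599 counts in soft replicates 1, 2 and 3, and 1042, 1106 and 1270 in stiff replicates 1, 2 and 3. RN7SL2 had 102, 285 and 628 counts in soft and 1102, 1225 and 1304 in stiff, in the same order. Groups did not overlap for either gene, and soft libraries differed among themselves far more than stiff ones. RN7SL3, the third copy, had 14, 23 and 24 counts in soft and 43, 41 and 60 in stiff, and its groups did not overlap either.

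**Figure D1:**
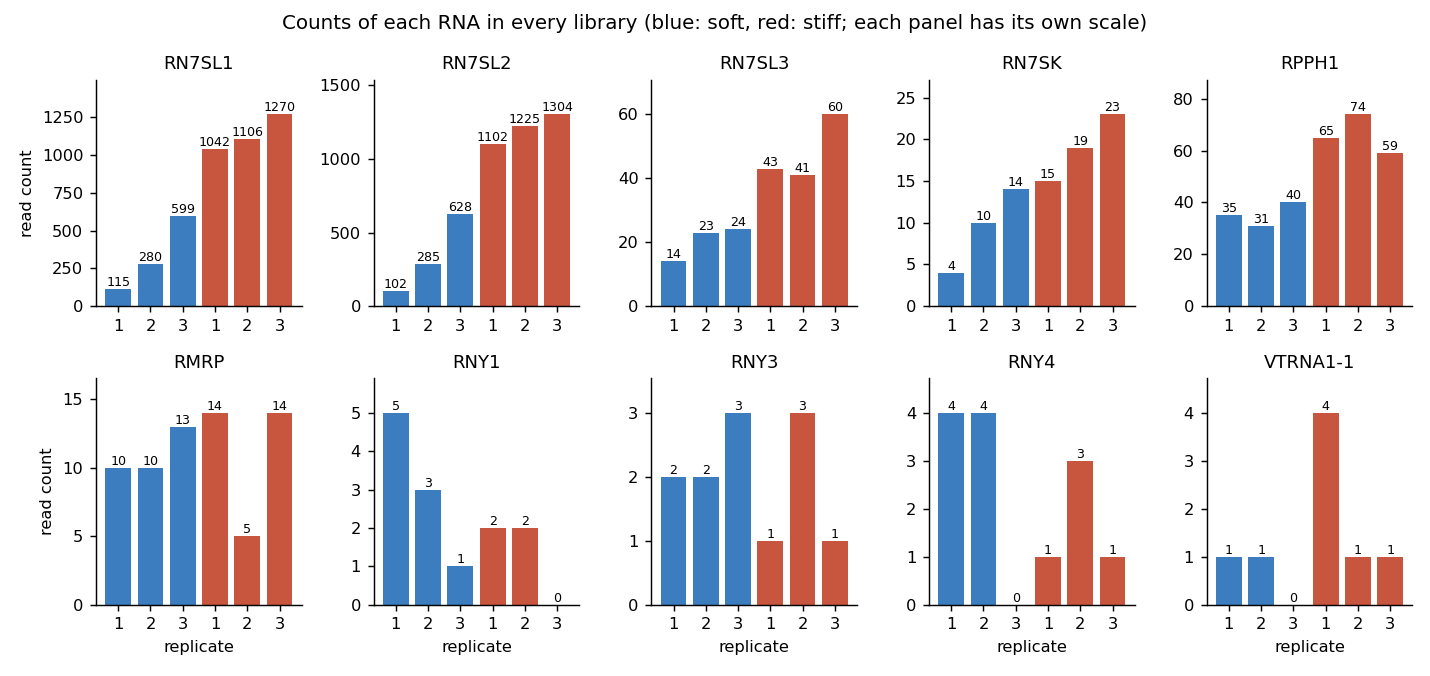
Read counts of the 10 RNAs in each library, one panel per gene with its own vertical scale from 0, soft replicates in blue and stiff replicates in red. Counts of the 7SL genes, RN7SK and RPPH1 are higher in every stiff library than in any soft one, and the short RNAs in the lower row reach at most 5.

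RN7SL3 rose 2.48-fold in stiff, with a log2 fold change of 1.31 ± 0.26 (SE, n = 3 per group; edgeR adjusted p = 0.000714). Its level went from 7.51 ± 2.08 CPM in soft to 18.6 ± 3.80 CPM in stiff (SD, n = 3 each). RN7SL1 had a larger log2 fold change of 1.85 ± 0.58 that did not pass (adjusted p = 0.446), from 123 ± 93.7 to 442 ± 35.9 CPM. RN7SL2 stood at 1.91 ± 0.62 (adjusted p = 0.465), from 126 ± 102 to 470 ± 23.0 CPM. Their 95% intervals on the log2 scale ran from 0.30 to 3.40 and from 0.24 to 3.57, against 0.80 to 1.82 for RN7SL3. The wide intervals went with the spread of soft libraries, whose SD was 93.7 CPM for RN7SL1 on a mean of 123 CPM. RN7SL1 and RN7SL2 were called by limma-voom (adjusted p = 2.55e-10 and 3.61e-10) and by edgeR without its robust fit (3.89e-33 and 5.13e-33). In edgeR only the robust setting separated the adjusted p of 0.446 from that of 3.89e-33 for RN7SL1. Such small values depend on how the fit sets the variance and do not measure the spread of the soft libraries. Over the alternatives, RN7SL3 had an adjusted p of 0.000420 to 0.0610, and leaving out stiff replicate 3 gave the highest and ended the call.

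Taken as 1 RNA, the 7SL genes summed to 231, 588 and 1251 counts in soft and 2187, 2372 and 2634 in stiff. This was 0.0273% ± 0.0202 of counts in soft and 0.0838% ± 0.00407 in stiff (SD, n = 3 each), a ratio of 3.07. Groups did not overlap, and the two-sided exact permutation p was 0.1, the lowest possible with 3 libraries a side. With the 3 rows replaced by their sum, edgeR gave a log2 fold change of 1.86 ± 0.63 (adjusted p = 0.483). Leaving out soft replicate 3 moved the ratio of shares to 5.12, and leaving out soft replicate 1 moved it to 2.31. Those shares were of all counts, whereas edgeR used TMM-scaled library sizes. Over counts without ribosomal RNA and mitochondrial genes the ratio was 3.59, and over protein-coding counts it was 3.62. A vesicle yield and an RNA content per vesicle cannot be told apart in such bulk counts.

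Counts of 7SL ordered the soft libraries as the counts of ribosomal RNA did. Ribosomal RNA genes summed to 72660, 106093 and 225805 counts in soft and 589224, 580733 and 680826 in stiff. Per 1000 ribosomal RNA counts there were 3.18, 5.54 and 5.54 counts of 7SL in soft and 3.71, 4.08 and 3.87 in stiff. On that scale the groups overlapped, with means of 4.75 ± 1.36 and 3.89 ± 0.187 (SD, n = 3 each; exact permutation p = 0.4, two-sided). This denominator was chosen after the values were seen, and it may count some ribosomal RNA reads more than once. The part of ribosomal RNA in the 7SL difference was not tested.

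**Figure D2:**
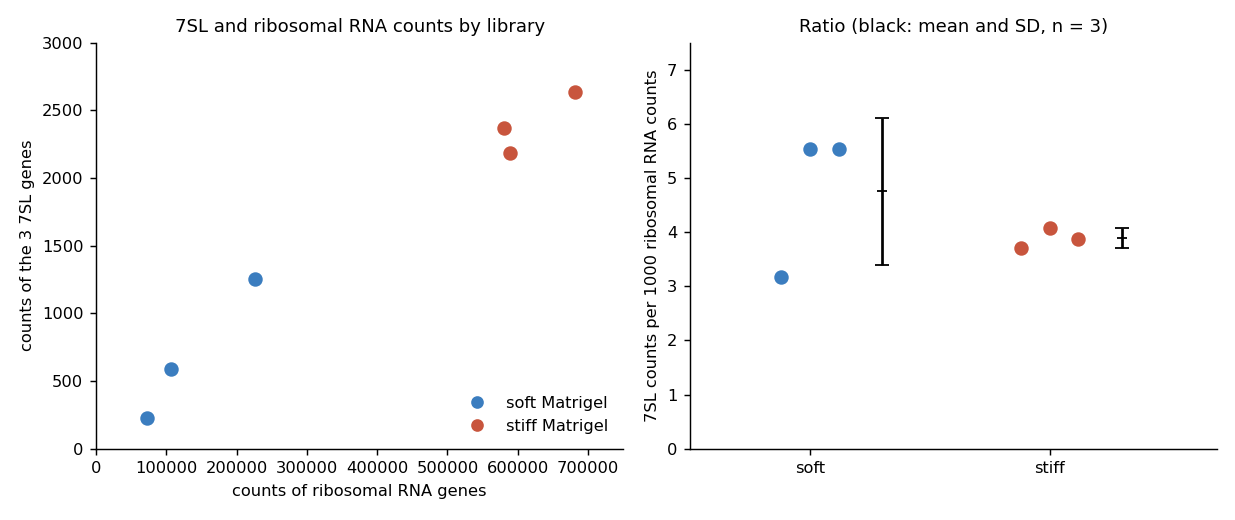
Left, counts of the 3 7SL genes against counts of ribosomal RNA genes in each library. Right, 7SL counts per 1000 ribosomal RNA counts, with black bars for the mean and SD of each group: soft libraries lie at 3.18, 5.54 and 5.54, on both sides of the stiff values of 3.71 to 4.08.

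The share of RN7SL3 within 7SL varied among soft libraries. RN7SL3 made up 6.06%, 3.91% and 1.92% of 7SL counts in soft and 1.97%, 1.73% and 2.28% in stiff. These ranges overlapped (exact permutation p = 0.3, two-sided), and the highest values belonged to the libraries with the fewest 7SL counts. RN7SL2 had 0.887, 1.02 and 1.05 counts per count of RN7SL1 in soft and 1.06, 1.11 and 1.03 in stiff.

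Of the genes with a RefSeq position whose span contains a 7SL gene, 1 followed its counts and 1 did not. LOC105378179, a long non-coding RNA gene whose span contains RN7SL2, exceeded RN7SL2 by 74, 70 and 63 counts in soft and 69, 52 and 59 in stiff. Its counts beyond those of RN7SL2 thus stayed between 52 and 74 while RN7SL2 ranged from 102 to 1304. RPS29, a ribosomal protein gene whose span contains RN7SL1, had 72, 108 and 88 counts in soft and 83, 93 and 78 in stiff, with no such difference (log2 fold change −0.00170 ± 0.15, edgeR adjusted p = 0.999).

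The 5 genes whose log2 CPM followed summed 7SL most closely over the 6 libraries were ranked by Pearson's r among 31066 genes. LOC107987206 led with r = 0.9999 and had 120, 291 and 603 counts in soft and 1047, 1109 and 1272 in stiff, which is 2 to 11 more than RN7SL1 in each library. LOC105378179 (r = 0.999) followed, then SH3PXD2A (0.998), an adaptor of invadopodia, and LYSMD1 and ZFAND6 (0.995 each). Counts of LOC107987206 and LOC105378179 went with those of RN7SL1 and RN7SL2, which are part of the sum. They may hold the same reads, so their likeness is no separate result. SH3PXD2A moved far less than 7SL, from 253, 295 and 311 counts to 317, 343 and 349 (log2 fold change 0.31 ± 0.088, edgeR adjusted p = 0.0912). With 6 libraries and so many genes, such likeness is a description.

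RPPH1, the catalytic RNA of ribonuclease P, rose in stiff, while RMRP of the sister enzyme showed no detectable difference. RPPH1 had 35, 31 and 40 counts in soft and 65, 74 and 59 in stiff. Its groups were well apart and its soft libraries were close to each other, unlike those of 7SL. The level went from 13.05 ± 1.94 to 25.6 ± 2.83 CPM (SD, n = 3 each), a log2 fold change of 0.97 ± 0.21 (SE; edgeR adjusted p = 0.00361), or 1.96-fold. The call was lost without soft replicate 2 (adjusted p = 0.0560), without stiff replicate 2 (0.0625) and with DESeq2 without its filter on mean count (0.0819), over a range of 0.00233 to 0.0819. PARP2, which lies 224 bases from RPPH1 on chromosome 14 and was picked out after its values were seen, had 190, 153 and 135 counts in soft and 142, 180 and 159 in stiff (log2 fold change 0.08 ± 0.12, adjusted p = 0.889).

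RMRP had 10, 10 and 13 counts in soft and 14, 5 and 14 in stiff, so that stiff replicate 2 was the lowest of all and the groups overlapped. Its log2 fold change was 0.08 ± 0.42 (edgeR adjusted p = 0.979), turned to −0.19 under library totals alone, and had a 95% interval from −0.75 to 0.91. The upper end of that interval lies just below the log2 fold change of 0.97 seen for RPPH1, whose own 95% interval ran from 0.56 to 1.38. These intervals overlap, and the difference between RPPH1 and RMRP was not tested.

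RN7SK, the RNA that holds P-TEFb inactive, had 4, 10 and 14 counts in soft and 15, 19 and 23 in stiff. Groups did not overlap, yet soft replicate 3 and stiff replicate 1 differed by 1 count. Its level was 3.46 ± 1.91 CPM in soft and 7.35 ± 1.30 CPM in stiff (SD, n = 3 each), a log2 fold change of 1.09 ± 0.39 that did not pass (edgeR adjusted p = 0.234; 95% interval 0.32 to 1.85).

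The edgeR test called 2 of the 10 genes, RN7SL3 and RPPH1, both higher in stiff. Of the 31074 genes tested, 0.451% were called in either direction, 0.286% higher and 0.164% lower in stiff. An unadjusted p under 0.05 was reached by 5 of the 6 tested, against 9.51% of all genes. The filter on low counts kept 6 of the 10 and left RNY1, RNY3, RNY4 and VTRNA1-1 untested. Scaled CPM of the groups did not overlap, with stiff higher, for 5 of the 6 tested, RN7SL1, RN7SL2, RN7SL3, RN7SK and RPPH1, against 7.38% of all genes tested. None of the 6 was lower without overlap, against 6.76% of all genes. The median log2 fold change was 1.20 over the 6 and −0.00484 over all genes tested. The 7SL genes among the 6 are near-identical copies that may share reads. These counts and this median therefore do not rest on 6 separate RNAs. Without the 7SL genes, the remaining 7 summed to 61, 61 and 71 counts in soft and 102, 107 and 99 in stiff, a ratio of shares of 1.40 (exact permutation p = 0.1, two-sided). RPPH1 alone made up 35, 31 and 40 of these counts in soft and 65, 74 and 59 in stiff. The ratio of 1.40 is of shares of all counts. Without ribosomal RNA and mitochondrial genes in the denominator it was 1.66, and over protein-coding counts 1.68. Leaving out any of soft replicate 2, stiff replicate 2 and stiff replicate 3 brought the number called to 1. It was 4 with limma-voom, which called 0.293% of all genes, and 4 without the robust fit, which called 0.428%. DESeq2 without its filter on mean count called 1 of them and 0.138% of all genes, and with that filter 0 of them and 3.11% of the genes given an adjusted p.

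**Figure D3:**
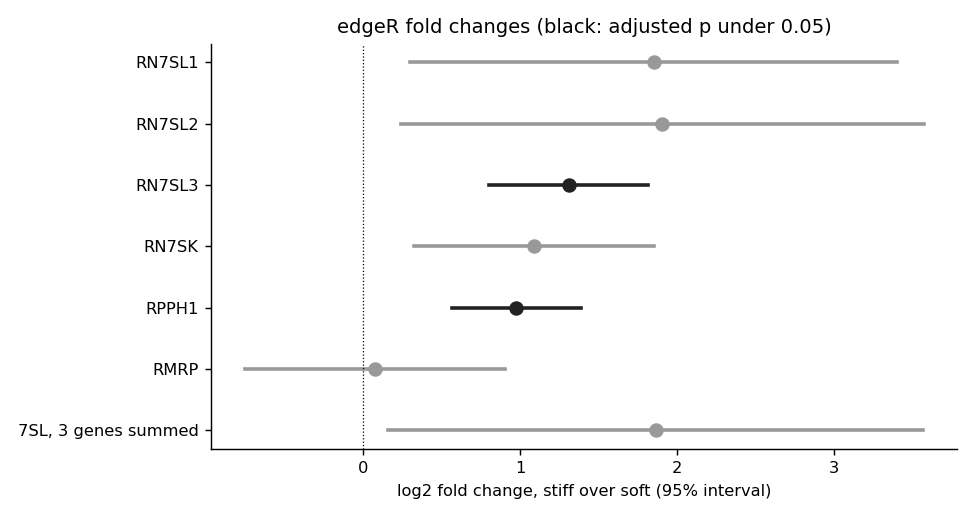
Log2 fold changes of stiff over soft from edgeR for the 6 tested genes and for summed 7SL, with 95% intervals as bars. RN7SL3 at 1.31 and RPPH1 at 0.97 are black for an adjusted p under 0.05, the grey intervals of RN7SL1 and RN7SL2 are wider, and RMRP lies near 0.

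Y RNAs, the partners of Ro60 and La, were barely counted. RNY1 had 5, 3 and 1 counts in soft and 2, 2 and 0 in stiff. RNY3 had 2, 2 and 3 counts in soft and 1, 3 and 1 in stiff, and RNY4 had 4, 4 and 0 in soft and 1, 3 and 1 in stiff. All groups overlapped. Summed, the 3 Y RNAs had 24 counts in soft and 14 in stiff, or 2.93 ± 1.29 and 1.80 ± 1.13 CPM (SD, n = 3 each; exact permutation p = 0.3, two-sided). The ratio of stiff to soft rates was 0.614, with an exact 95% interval of 0.294 to 1.24 that covers counting error only. The 0 of RNY1 in stiff replicate 3 allows up to 3 counts, or 1.01 CPM of the library total.

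VTRNA1-1, the vault RNA, had 1, 1 and 0 counts in soft and 4, 1 and 1 in stiff. With 2 and 6 counts in all, a difference was not detectable at this depth (rate ratio 3.16, exact 95% interval 0.565 to 32.02 for counting error). Scaled CPM of the groups did not overlap (two-sided exact permutation p = 0.1, the lowest possible), although libraries of both groups held 1 count. That gap came from the scaling. As CPM of library totals, 1 count stood at 0.409 and 0.396 in soft replicates 1 and 2. In stiff replicates 2 and 3 it stood at 0.345 and 0.336, so the groups overlapped. LOC105378198, a long non-coding RNA gene that overlaps it, had 16, 11 and 9 counts in soft and 12, 20 and 12 in stiff (edgeR adjusted p = 0.834). Other short relatives were as sparse. RNY5, the remaining Y RNA, had 1, 6 and 2 counts in soft and 0, 2 and 2 in stiff, and VTRNA1-2, VTRNA1-3 and VTRNA2-1 reached at most 4 counts in any library. The 593 other genes of 90 to 120 bases, a group chosen after the values were seen, had a median of 1 to 2 counts per library, and RNY1, RNY3, RNY4 and VTRNA1-1 had 0 to 5.

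Per kb of gene, RN7SL1 and RN7SL2 stood far above the other RNAs, and the Y and vault RNAs lay among ordinary genes. RN7SL2 had 1132 ± 893 counts per kb in soft and 4048 ± 340 in stiff, and RN7SL1 had 1108 ± 823 and 3810 ± 393 (SD, n = 3 each). RPPH1 came next with 104 ± 13.2 and 194 ± 22.1, then RN7SL3 with 68.0 ± 18.4 and 161 ± 34.9. The lowest RN7SL1 library still exceeded the highest RPPH1 library, whereas the ranges of RPPH1 and RN7SL3 overlapped. Below them RN7SK had 28.1 ± 15.2 and 57.2 ± 12.0 counts per kb and RMRP 40.7 ± 6.42 and 40.7 ± 19.2, and neither was above the other in all libraries. RNY4, RNY3, RNY1 and VTRNA1-1 had means over the 6 libraries of 22.6, 19.6, 19.2 and 13.6 counts per kb, with ranges that overlapped between neighbours in that order.

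The median of 25653 genes with an exon length was 14.1 to 16.2 counts per kb across libraries. RN7SL1 and RN7SL2 lay above 99.9% of those genes in every library, and RPPH1 above 98.8% or more. RN7SL3 ranged from the percentile of 93.3 to that of 99.9, and RN7SK from 33.5 to 97.4. These values are not corrected for fragment length, which matters most for the shortest genes.

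**Figure D4:**
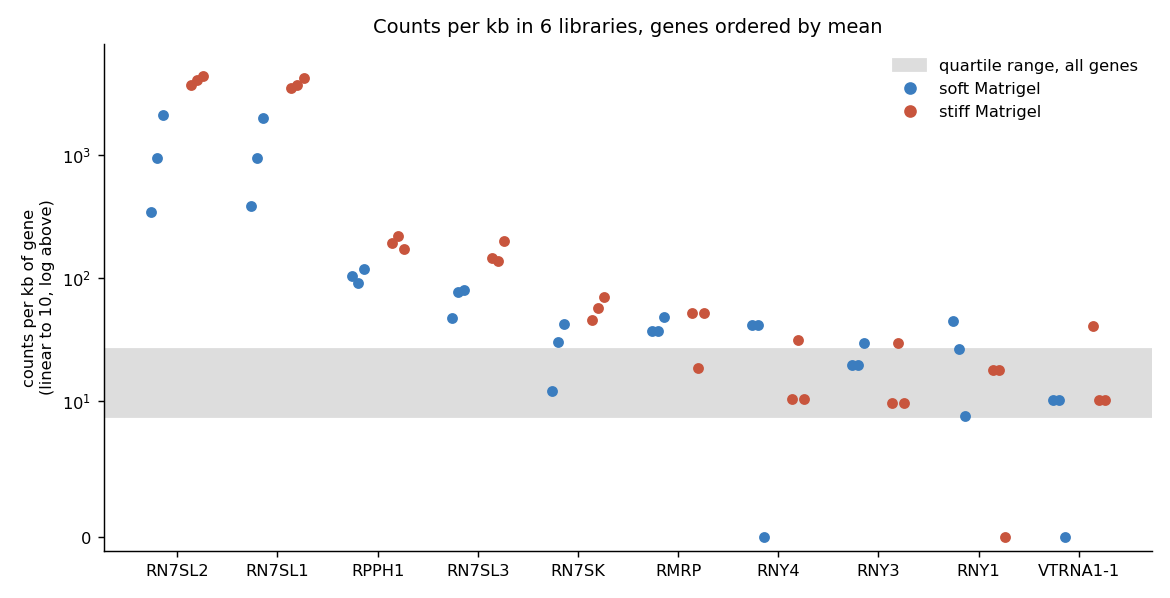
Counts per kb of gene in each library for the 10 RNAs ordered by their mean, on an axis that is linear to 10 and logarithmic above. The grey band spans the quartiles of all genes: RN7SL1, RN7SL2, RPPH1 and RN7SL3 lie above it in every library, and the Y and vault RNAs scatter in and around it.

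Across the 6 libraries, log2 CPM of RN7SL1 correlated with that of RN7SL2 (Pearson's r = 0.999), RN7SK (0.974), RN7SL3 (0.951) and RPPH1 (0.857), and hardly with that of RMRP (0.103). The points share libraries, depth and the group difference, so these values describe the set. Total RN7SK counts were 28 in soft and 57 in stiff, and 7SL differed more between the groups. RN7SK was thus lower in stiff relative to 7SL, at 17.3, 17.0 and 11.2 counts per 1000 7SL counts in soft. The stiff values were 6.86, 8.01 and 8.73 (exact permutation p = 0.1, two-sided, the lowest possible). This ratio was not planned. 7SL made up 79.1%, 90.6% and 94.6% of the counts of the 10 genes in soft and 95.5%, 95.7% and 96.4% in stiff.

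Genes of proteins that bind these RNAs, share their particles or make them were read against the share called over all genes. Among those named, SRP19 had 10.5 to 11.5 counts per kb and SNAPC4 had 54.5 to 71.2. The median over 25653 genes was 14.1 to 16.2. Whether such counts stand above a general background was not tested. Of 69 tested genes in 5 lists, edgeR called 0, with 10 at an unadjusted p under 0.05, and limma-voom and DESeq2 without its filter on mean count also called 0 (10 and 4 unadjusted). Over all genes tested, edgeR called 0.451% and gave 9.51% an unadjusted p under 0.05. The 8 signal recognition particle proteins and receptor subunits had a median log2 fold change of 0.08, with SRP19 at 43.4 and 44.2 CPM and the receptor subunit SRPRB at 41.3 and 44.1 CPM in soft and stiff. SRPRA, picked out after its values were seen, had the smallest adjusted p of that list, at 0.255, with 55, 52 and 56 counts in soft and 68, 81 and 70 in stiff.

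The 7 proteins of the 7SK particle and P-TEFb had a median of 0.22, with HEXIM2, an inhibitor of the kinase, at 35.1 and 43.4 CPM and CDK9, the kinase itself, at 36.5 and 43.2 CPM. The 11 proteins of RNase P and MRP had a median of −0.30, with RPP25 at 29.7 and 35.4 CPM and RPP30 at 25.9 and 21.6 CPM. The 11 Y RNA binding proteins and vault proteins had a median of 0.03, with the vault protein TEP1 at 213 and 195 CPM and PTBP1 at 62.2 and 64.8 CPM. The 32 genes of the polymerase III machinery had a median of 0.00843 against −0.00484 over all genes, with SNAPC4 of the small nuclear RNA activating complex at 113 and 128 CPM and the initiation factor BRF1 at 96.0 and 107 CPM.

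Among further structured RNAs, TERC, the telomerase RNA, was the 1 of 6 in the table that could be tested and was not called (32, 18 and 21 counts in soft, 31, 13 and 30 in stiff; log2 fold change 0.14 ± 0.30, edgeR adjusted p = 0.934). BCYRN1, a brain cytoplasmic RNA related to 7SL, had 3, 3 and 5 counts in soft and 2, 3 and 0 in stiff. RN7SL832P, a transcribed pseudogene copy of 7SL on chromosome 2 chosen after its values were seen, had 29, 37 and 27 counts in soft and 19, 26 and 35 in stiff (log2 fold change −0.14 ± 0.27, adjusted p = 0.921).

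**Figure D5:**
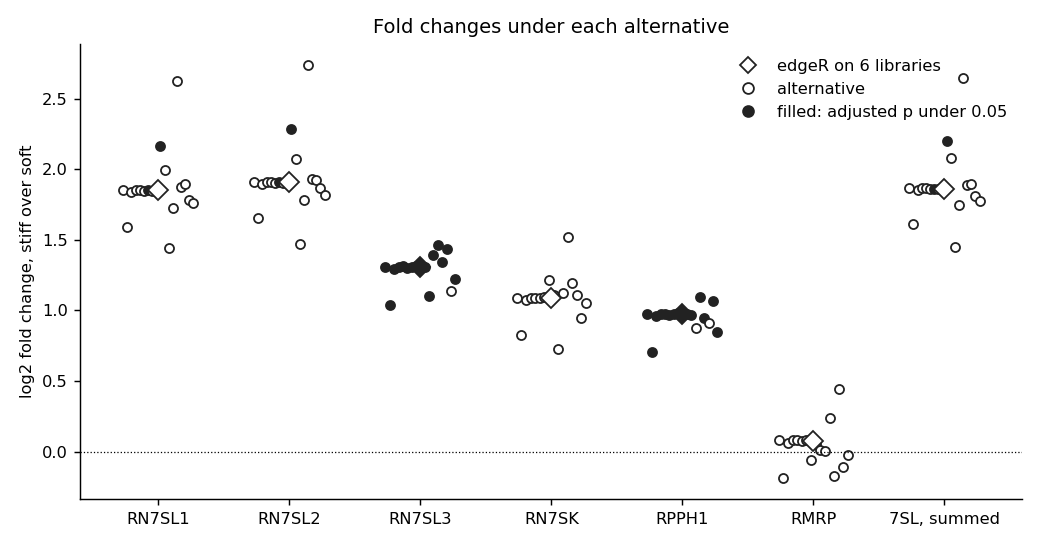
Log2 fold changes of the 6 tested genes and of summed 7SL from edgeR on all 6 libraries (diamonds) and under each alternative that gave a p (circles), filled for an adjusted p under 0.05. RN7SL3 and RPPH1 are filled in most alternatives, RN7SL1 and RN7SL2 lie at 1.44 or above with few filled, and RMRP lies on both sides of 0.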

How the data were processed

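RNA from small extracellular vesicles was sequenced in 6 libraries, 3 per group, as pairs of 61-base reads from about 10 ng RNA and 9 PCR cycles, per the labels. The deposited values are raw counts per gene symbol, not normalized by the authors. Trim Galore 0.4.2, cutadapt 1.9.1, FastQC 0.11.7, STAR 2.6.1e, featureCounts 1.6.2, DESeq2 1.26.0 and hg38 are named without roles, per the submitters' processing notes. The annotation, strand setting and treatment of multi-mapping or overlapping reads are not given in the sources used here. Replicate numbers were taken from the titles, since 2 stiff descriptions share a number.

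Differences between stiff and soft came from quasi-likelihood F tests in edgeR 4.0.16 under R 4.3.3, two-sided, with TMM scaling, filterByExpr, robust fits and group as the only term. Benjamini-Hochberg adjustment ran over 31074 genes, with a call at adjusted p under 0.05. Standard errors came from the F statistic. CPM used TMM-scaled library sizes. Single sums and ratios were compared by exact permutation tests in SciPy 1.17.1. DESeq2 1.42.0, limma 3.58.1 (voom), other scalings, filters, a replicate block and leaving out each library were alternatives, and GC correction was added after the data were seen. The fit was tested on simulated data. Within each group, replicates varied beyond sampling noise (chi-square per degree of freedom 1.53 to 3.86), but PCR reads are not independent molecules, so intervals from counts cover counting error only. That chi-square is summed over all genes, so ribosomal RNA genes, with their many counts, weigh heavily in it.

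Lengths and coordinates came from RefSeq (GRCh38.p14), which held 35508 of 38167 symbols, and exon lengths of other genes and all sequences from GENCODE 29 (25653 symbols with a length). The 10 genes and the lists were chosen with earlier results of these data known. The rule for named genes took all 10 genes, from each list the called genes and the 2 with the highest mean CPM, nearest neighbours only where called or overlapping, and the 5 genes most like summed 7SL. PARP2, SRPRA and RN7SL832P fall outside it. Sequences of some of the 10 genes are not reported here.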

Additional observations from a re-analysis of the deposited data

How the results depend on the processing

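RN7SL1, RN7SL2, RN7SL3, RN7SK and RPPH1 kept a positive log2 fold change in every alternative that gave them a p. The lowest were 1.44, 1.47, 1.04, 0.73 and 0.71. RMRP turned negative under library totals alone (−0.19), with limma-voom (−0.059) and after GC correction (−0.022), and ranged from −0.17 to 0.44 when a library was left out. Summed 7SL (1.86 by edgeR, not called) was called at 1.86 without the robust fit (adjusted p = 4.42e-31) and at 2.20 with limma-voom (5.81e-11), and ranged from 1.45 to 2.65 when a library was left out. In edgeR the robust setting alone moved the adjusted p of summed 7SL from 0.483 to 4.42e-31. The small value does not measure the spread of the soft libraries. Of the 10 genes, 2 were called by edgeR, 4 without the robust fit, 4 with limma-voom and 1 with DESeq2 without its filter on mean count. DESeq2 with that filter called 0, with 5 at an unadjusted p under 0.05, and gave an adjusted p for only 2 of them, RN7SL1 and RN7SL2. Leaving out a library gave 1 to 2. Over all genes 140 were called, against 4194 under library totals alone (which moved the median log2 fold change to −0.27), 67 and 43 with DESeq2 with and without its filter, 91 with limma-voom, 55 after GC correction, and 60 to 136 when a library was left out. The cause of these changes was not tested. After GC correction RN7SL3 stood at 1.22 (adjusted p = 0.00290) and RPPH1 at 0.85 (0.0285). The share ratio of summed 7SL ranged from 2.31 to 5.12 and that of the 10 genes from 2.25 to 4.64 when a library was left out. Whether shared replicate numbers pair the libraries stayed undecided. In their deviations from group means, same-numbered libraries correlated at 0.00589, 0.00527 and 0.00996, and the others at −0.0121 to 0.00625. Not every library correlated best with its own number, but values so near 0 from 3 libraries a group cannot exclude pairing. With the replicate block 173 genes were called, 2 of the 10 among them, and summed 7SL stood at 2.08 (adjusted p = 0.619). The Y and vault RNAs had too few counts to pass the filter on low counts, so no alternative other than its absence could test them. Without that filter none of them was called. The cause of their low counts was not tested.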
